A study of Mus musculus with 12 samples.

Results

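The 10 *Hox* genes of paralog groups 9 to 11 that mice carry in their 4 *Hox* clusters were followed through bulk RNA sequencing of ventral spinal cord tissue. The members were taken by name, as NCBI Gene identifiers matched to mouse symbols: *Hoxa9*, *Hoxb9*, *Hoxc9*, *Hoxd9*, *Hoxa10*, *Hoxc10*, *Hoxd10*, *Hoxa11*, *Hoxc11* and *Hoxd11*. They are 10 of the 45777 identifiers listed in each library and of the 39 *Hox* genes. The 12 libraries came from mouse embryos at E12.5, 3 from each combination of level (brachial or lumbar spinal cord) and genotype, *Isl2* +/- (Het) or *Isl2* -/- (KO). The tissue of every group was cut from the ventral cord around the *Hb9*::GFP reporter, a transgene that marks motor neurons, so motor neurons were enriched but not sorted. The Het libraries served as controls and carry 1 mutant *Isl2* allele themselves. No wild-type group was analysed here.

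*Hox* genes encode homeodomain transcription factors that lie in clusters, and their order along a cluster matches the order in which they are expressed from head to tail. In the spinal cord they give motor neurons their segmental identity. *Hox* genes of the middle of the clusters act at brachial levels, those of paralog group 9 act at thoracic levels, where *Hoxc9* represses the program of limb-innervating motor neurons, and those of paralog groups 10 and 11 act at lumbar levels. *Hoxc10* and *Hoxd10* promote lumbar motor neuron columns that innervate the hindlimb, and *Hox11* genes also pattern the limb skeleton and the kidney. The comparison between levels asked where each member was expressed, and the comparison between genotypes asked whether its level differed in the absence of *Isl2*, a LIM homeodomain factor of motor neurons.

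All values are the deposited TPM, a unit that divides the reads of a gene by transcript length and by the library total, brought to a common scale with a size factor for each library, and are called rescaled TPM. Because TPM is per length, levels may be compared between genes. The aligned bases behind a library were 4.48 to 6.64 Gb. The tables hold no read counts, so no counting interval can be given, and a value of 0 means only that the gene is listed at 0. In bulk tissue, fewer cells that express a gene and less RNA per cell cannot be told apart.

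*Isl2* itself was at 8.33 to 9.72 in brachial Het, 4.47 to 7.28 in brachial KO, 8.43 to 10.3 in lumbar Het and 6.53 to 8.24 in lumbar KO libraries, so reads from the locus remained in KO, whose allele has part of the gene replaced by a selection cassette. The genotype groups did not overlap at either level, and the log2 difference between KO and Het was -0.61 brachial (unadjusted p = 0.0107, adjusted p = 0.357 by limma) and -0.35 lumbar (unadjusted p = 0.0288, adjusted p = 0.999 by limma). Motor neuron genes were present at both levels, with *Mnx1* (*Hb9*) at 43.6 ± 2.94 brachial and 53.1 ± 12.1 lumbar (SD, n = 6 each). The summed level of 11 motor neuron markers was 526 to 592 brachial and 275 to 431 lumbar. Of these markers 2 were called lower at the lumbar level (adjusted p under 0.05 by limma), none higher and 9 not, beside 9.62% of all tested genes called lower and 8.91% called higher. The 2 were *Prph*, which encodes the intermediate filament protein peripherin and went from a mean of 285 brachial to 48.6 lumbar, and the choline transporter gene *Slc5a7*, from 28.8 to 13.5. The median log2 difference over the 11 was 0.16. Of 7 endothelial markers, 4 were called lower by the same test (*Cldn5*, *Flt1*, *Tek* and *Kdr*, log2 differences of -0.61 to -0.36), with sums of 70.1 to 93.3 brachial and 57.4 to 71.5 lumbar, and of 7 microglia and macrophage markers 4 were called lower (*Csf1r*, *Cx3cr1*, *C1qb* and *C1qa*, -0.996 to -0.65), with sums of 21.5 to 33 brachial and 10.2 to 21.8 lumbar. Of 7 tested mesenchyme and cartilage markers 3 were called lower (*Pdgfra*, *Col1a2* and *Dcn*, -1.47 to -0.35) and *Tcf15* higher (0.66), and of 5 tested crest and Schwann cell markers *Erbb3* (-1.65) and *Fabp7* (-0.40) were called lower. *Fabp7* made 98.7% of the summed level of that list over all 12 libraries, so its call is not read as a change in those cells. Of 12 tested dorsal interneuron and roof plate markers, *Barhl2* and *Barhl1* (-0.96 and -0.91) were called lower and 10 were not called, with a median of 0.02. Of 7 floor plate and ventral progenitor markers, *Olig2* (-0.73) was called lower, *Nkx6-1* higher and 5 neither, with a median of 0.26. *Zeb2*, 1 of 2 tested genes of the preganglionic list, was called higher (0.23). The part of these differences in the comparison of levels was not tested. The limb genes *Tbx4*, *Tbx5* and *Pitx1* had means of at most 0.164 at either level. Of the 9 limb bud mesenchyme genes they belong to, 4 passed the filter on low values and 1, *Shox2*, was called higher at the lumbar level (log2 difference 0.33, adjusted p = 0.0415 by limma), with sums of 32.6 to 42.5 brachial and 32.8 to 44.9 lumbar. *Shox2* made 62.2% of the summed level of that list over all 12 libraries. Same-numbered brachial and lumbar libraries of a genotype differed in the Y-linked *Ddx3y* in 3 of 6 pairs, so a number does not mark 1 embryo there. The design names 3 animals of each genotype, so brachial and lumbar libraries may come from the same animals, and which of them share an embryo is unknown. The comparisons of levels and the interaction treat all libraries as independent, so their p-values do not account for shared embryos.

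The members lie in 4 blocks of the GRCm38 genome. *Hoxd11* (chr2:74679558-74687016), *Hoxd10* (chr2:74684273-74695106) and *Hoxd9* (chr2:74697763-74700208) run along the plus strand. *Hoxa9* (chr6:52223097-52227370), *Hoxa10* (chr6:52231197-52240854) and *Hoxa11* (chr6:52242105-52245810) run along the minus strand. *Hoxb9* (chr11:96271330-96276595) is the only member in HoxB. *Hoxc11* (chr15:102954526-102956701), *Hoxc10* (chr15:102966796-102971898) and *Hoxc9* (chr15:102977032-102984444) lie on the plus strand. The annotated *Hoxd10* and *Hoxd11* intervals share 2744 bp on the same strand, so reads in that stretch could be assigned to either gene. On the opposite strand, *Hoxa11* shares 568 bp with the antisense RNA *Hoxa11os* and 1279 bp with *LOC115490410*, and *Hoxc9* shares 587 bp with *Gm36878*. The library kit keeps strand, but the strand setting of the quantification is not given in the sources used here.

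RefSeq promoter windows of the same build were matched for 6 of the 10 members. The 250 bases before a start site are shown for *Hoxa9*, which was expressed at both levels, and for *Hoxd10* and *Hoxd11*, which were expressed at the lumbar level alone among these libraries apart from traces. The *Hoxa9* stretch is chr6:52227371-52227620 (minus strand), the *Hoxd10* stretch chr2:74691641-74691890 (plus strand) and the *Hoxd11* stretch chr2:74682073-74682322 (plus strand, before the second of its 2 listed starts). Capitals mark matches to any of 8 short motifs, searched on both strands.
*Hoxa9*: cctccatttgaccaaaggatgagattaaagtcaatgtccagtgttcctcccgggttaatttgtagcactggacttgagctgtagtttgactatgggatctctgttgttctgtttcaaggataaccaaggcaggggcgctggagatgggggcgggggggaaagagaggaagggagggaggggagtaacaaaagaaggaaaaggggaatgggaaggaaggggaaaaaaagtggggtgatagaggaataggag
*Hoxd10*: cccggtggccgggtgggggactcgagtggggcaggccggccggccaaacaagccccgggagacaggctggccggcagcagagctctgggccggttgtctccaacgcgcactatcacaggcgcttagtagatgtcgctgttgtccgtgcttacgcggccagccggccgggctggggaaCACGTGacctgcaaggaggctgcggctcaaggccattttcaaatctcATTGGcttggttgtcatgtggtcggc
*Hoxd11*: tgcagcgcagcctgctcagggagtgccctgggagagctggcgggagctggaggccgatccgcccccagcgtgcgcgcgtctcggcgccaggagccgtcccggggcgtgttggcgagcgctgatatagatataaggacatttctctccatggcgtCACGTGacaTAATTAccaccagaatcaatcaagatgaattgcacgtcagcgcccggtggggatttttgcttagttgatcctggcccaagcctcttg

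The E-box CACGTG began 73 bases before the *Hoxd10* start and 96 bases before the second *Hoxd11* start, and 6.02% of all 32851 promoter windows hold it. The homeodomain core TAATTA lay in both *Hoxd11* windows and in 4.84% of all windows. The CCAAT motif was found in *Hoxd10* and in 1 of the 2 *Hoxa10* windows, and in 33.9% of all windows. TATAAA was found in 1 *Hoxa10* window and in 12.4% of all. The composite Pbx and Hox motifs TGATTTAT and TGATTTAC (0.837% and 0.496% of all windows) and the posterior Hox and Cdx motifs GTCGTAAA and GTCATAAA (0.192% and 0.831%) matched none of the 8 member windows. The count of CpG dinucleotides over the 250 bases was 3 for *Hoxa9*, 13 for *Hoxd9*, 7 and 20 for the 2 *Hoxa10* windows, 20 for *Hoxd10*, 13 for *Hoxa11*, and 2 and 20 for the 2 *Hoxd11* windows, beside a median of 6 over all windows, so windows of lumbar members lay on both sides of *Hoxa9*. A match or its absence describes these letters in this window only.

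Between levels, 8 of the 10 members were called higher at the lumbar level and none lower, and *Hoxb9* and *Hoxc9* were not called. A member was called when limma's test, with p-values adjusted by Benjamini-Hochberg over all 16706 genes tested, gave an adjusted p under 0.05. The background is 8.91% of tested genes called higher at the lumbar level, 9.62% called lower and 18.5% called in either direction. For 7 of these 8 only a higher call was possible, because they lay at or near 0 in brachial libraries and passed the filter on low values only through the lumbar ones, so their count is a description and is not to be read against those shares, and *Hoxa9* was the only one of the 8 with a level at both. The 8 members also had all 6 lumbar libraries above all 6 brachial libraries, as did 3.65% of tested genes. Within Het libraries the same count was 8 of 10, beside 0.968% of 16632 genes, and within KO libraries it was 8 of 10, beside 0.816% of 16796 genes. The size of the difference for the 7 members at or near 0 at the brachial level is set by the 0.1 added before taking logs, so neither a fold for those nor a median over the members is given. For those 7, the p-values below and the counts within Het and KO carry the same limit.

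**Figure D1:**
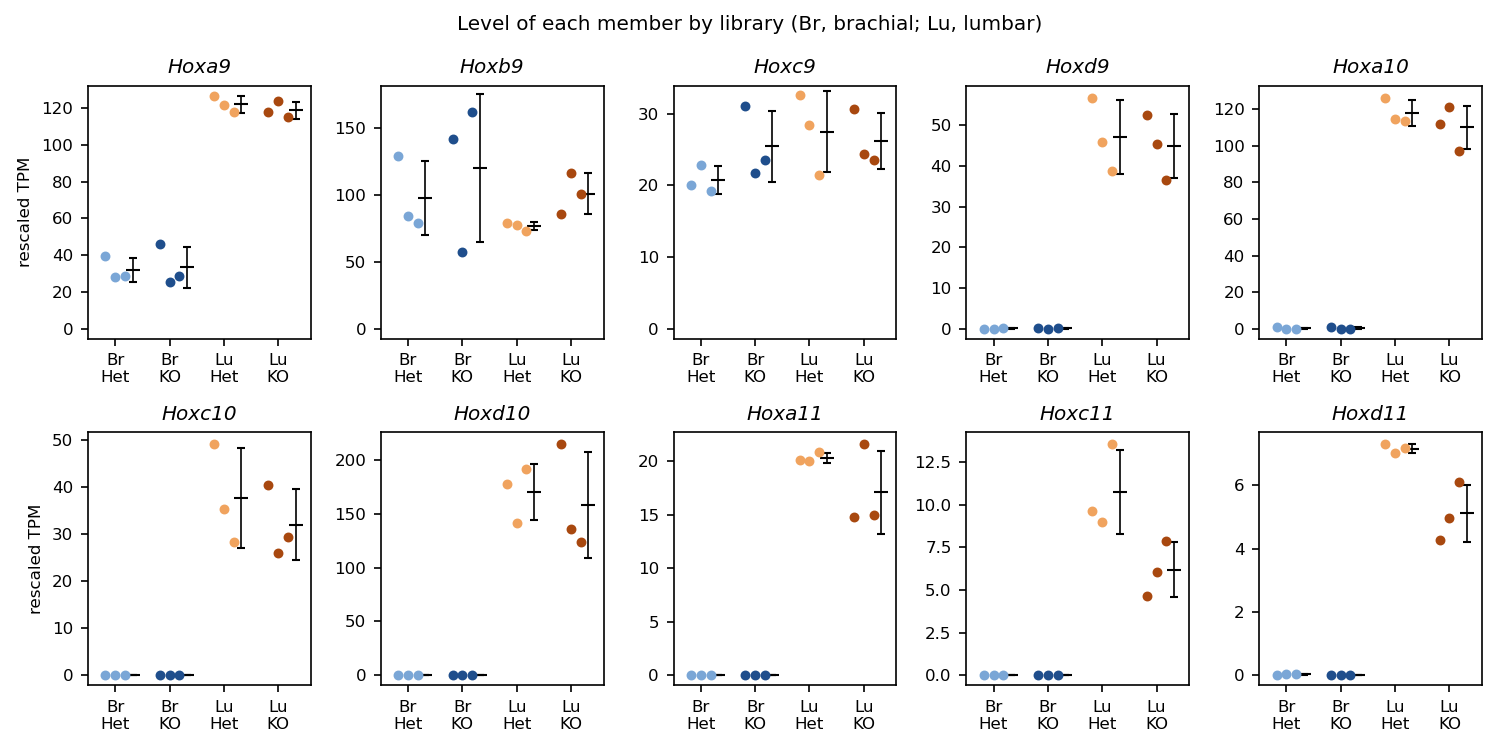
Rescaled TPM (linear y axis, one scale per panel) of each member in each of the 12 libraries, in 4 groups of 3 (Br, brachial; Lu, lumbar), with the mean and SD of each group as a bar beside the points. *Hoxb9* and *Hoxc9* overlap between levels, *Hoxa9* is present at both and higher at the lumbar level, and the other 7 members lie at or near 0 in the brachial libraries.

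The 4 paralog group 9 genes showed 3 different patterns. *Hoxd9* was nearly silent in brachial libraries, with 0.031, 0.0611 and 0.314 in Het and 0.113, 0.0535 and 0.11 in KO. Its lumbar levels were 56.9, 46 and 38.7 in Het and 52.6, 45.6 and 36.7 in KO. The lowest lumbar library was thus far above the highest brachial one, and limma's adjusted p was 3.62e-10.

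*Hoxa9* was expressed at both levels. Its brachial levels were 39.4, 27.9 and 28.5 in Het and 45.9, 25.3 and 28.8 in KO, and its lumbar levels were 127, 122 and 118 in Het and 118, 124 and 115 in KO. The lumbar mean was 3.69 times the brachial mean, and the log2 difference was 1.91 (SE 0.127, adjusted p = 1.45e-06 by limma). Lumbar *Hoxa9* was the steadiest of the highly expressed members, at 120 ± 4.41 (SD, n = 6). Within KO libraries alone, *Hoxa9* was called (adjusted p = 0.00752), but with an adjusted p of 0.053 without lumbar KO replicate 3 and 0.0512 without the filter on low values.

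*Hoxb9* was high at both levels and had the largest SD between brachial libraries. Its brachial levels were 129, 84.3 and 78.7 in Het and 142, 57.6 and 162 in KO. Its lumbar levels were 78.9, 77.4 and 73.2 in Het and 85.8, 117 and 101 in KO. The ranges overlapped, and the lumbar minus brachial difference was -0.22 on the log2 scale (95% interval -0.69 to 0.25, limma adjusted p = 0.526). Without brachial KO replicate 2, the lowest library, *Hoxb9* passed the test as lower at the lumbar level, at -0.44 (adjusted p = 0.0442).

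*Hoxc9*, the repressor of limb-level motor neuron identity at thoracic levels, was expressed at both levels with overlapping ranges. Its brachial levels were 20, 22.9 and 19.3 in Het and 31.1, 21.8 and 23.5 in KO, and its lumbar levels were 32.6, 28.4 and 21.5 in Het and 30.7, 24.3 and 23.6 in KO. The difference between levels was 0.22 on the log2 scale (95% interval -0.05 to 0.49, limma adjusted p = 0.25). *Gm36878*, which overlaps *Hoxc9* on the opposite strand, was called higher at the lumbar level (log2 difference 0.85, limma adjusted p = 0.00814). With the strand setting not given, reads in the overlap could be assigned to either gene, and their part in the *Hoxc9* values was not tested.

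All 3 paralog group 10 genes were lumbar genes in these libraries. *Hoxd10*, which helps set lumbar motor neuron identity, was listed at 0 in 5 of the 6 brachial libraries and at 0.0244 in brachial KO replicate 2. Its lumbar levels were 178, 142 and 192 in Het and 215, 136 and 124 in KO (limma adjusted p = 5.8e-14). The highest values, of Het replicate 3 and KO replicate 1, rest on how TPM was assigned, since TPM per unit of deposited coverage was there 1.47 and 1.48 times that of *Hoxd9* and 1.01 to 1.04 times in the other 4 lumbar libraries. As reads per base for each aligned Gb, *Hoxd10* was at 87.8, 69.7 and 63.9 in lumbar Het and 73.3, 65.8 and 59 in lumbar KO, with Het replicate 1 highest.

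*Hoxa10*, a paralog of *Hoxd10* in the HoxA cluster, was at 0.719, 0.0841 and 0.0765 in brachial Het and at 1.09, 0.0383 and 0 in brachial KO libraries. Lumbar *Hoxa10* was at 126, 115 and 113 in Het and 112, 121 and 97.2 in KO, far above every brachial library (limma adjusted p = 7.5e-07). The first replicate of each brachial group stood above the other 2 in *Hoxa10* and also in *Hoxa9*. The summed level of 13 dorsal interneuron and roof plate markers was likewise highest there, at 80.6 in brachial Het replicate 1 and 87 in brachial KO replicate 1 against 54.7 to 64.1 in the other brachial libraries. The part of that tissue difference in the *Hoxa9* and *Hoxa10* values was not tested.

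*Hoxc10*, which acts with *Hoxd10* in lumbar motor neurons, was listed at 0 in all 6 brachial libraries. Lumbar *Hoxc10* was at 49.2, 35.4 and 28.3 in Het and 40.4, 26 and 29.5 in KO (limma adjusted p = 1.21e-12).

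The 3 paralog group 11 genes were also confined to the lumbar libraries, apart from *Hoxd11* traces, and were the lowest members there. *Hoxa11* was listed at 0 in every brachial library and was at 20.1, 20 and 20.8 in lumbar Het and 14.8, 21.6 and 14.9 in lumbar KO (limma adjusted p = 1.21e-12). *Hoxc11* was listed at 0 in every brachial library and was at 9.62, 8.99 and 13.5 in lumbar Het and 4.65, 6.06 and 7.87 in lumbar KO (limma adjusted p = 5.95e-10). *Hoxd11* was listed at 0 in 4 brachial libraries and at 0.0531 and 0.0359 in brachial Het replicates 2 and 3. Its lumbar levels were 7.29, 7 and 7.16 in Het and 4.28, 4.95 and 6.08 in KO (limma adjusted p = 1.92e-10).

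Among the members at the lumbar level, the order of mean rescaled TPM over 6 libraries was *Hoxd10* (164 ± 35.8, SD), *Hoxa9* (120 ± 4.41), *Hoxa10* (114 ± 9.83), *Hoxb9* (88.8 ± 16.7), *Hoxd9* (46.1 ± 7.76), *Hoxc10* (34.8 ± 8.79), *Hoxc9* (26.9 ± 4.4), *Hoxa11* (18.7 ± 3.05), *Hoxc11* (8.46 ± 3.1) and *Hoxd11* (6.13 ± 1.26). Of the neighbours in this order, the ranges were separate between *Hoxb9* and *Hoxd9* and between *Hoxa11* and *Hoxc11*, and all other neighbouring pairs overlapped. *Hoxd10* ranked first of all 39 *Hox* genes at the lumbar level, followed by *Hoxa9* and then *Hoxa10*. By coverage for each aligned Gb, *Hoxd10* (69.9 ± 10) and *Hoxa9* (58.7 ± 2.44) kept the top ranks among the members, and *Hoxb9* (44.1 ± 8.1) stood before *Hoxa10* (42.5 ± 3.72). At the brachial level the order was *Hoxb9* (109 ± 41), *Hoxa9* (32.6 ± 8.11) and *Hoxc9* (23.1 ± 4.22), with the other 7 members at means of 0.335 or less, and *Hoxa9* and *Hoxc9* overlapped in range. *Hoxb9* there ranked second of the 39, behind *Hoxc8* at 157.

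**Figure D2:**
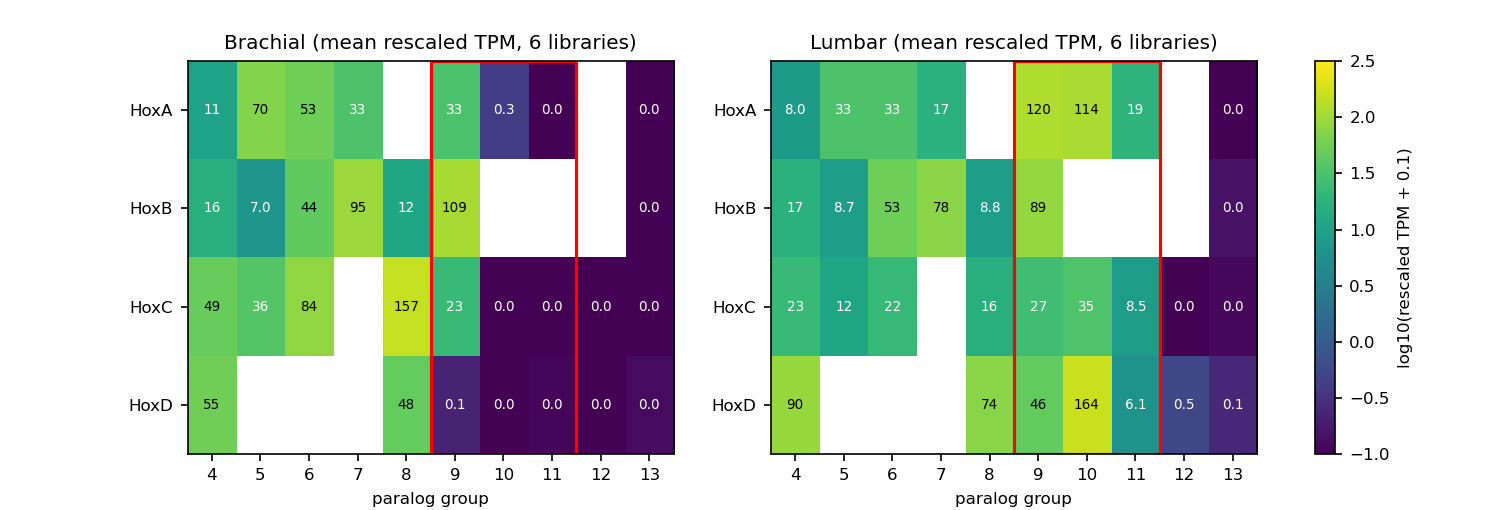
Mean rescaled TPM over 6 libraries of each *Hox* gene of paralog groups 4 to 13 at the brachial (left) and lumbar (right) level, with the 4 clusters as rows and paralog groups as columns. Colour is log10(rescaled TPM + 0.1), white cells have no gene, and the red box encloses the members. Brachial signal stops after paralog group 9 in HoxA, HoxB and HoxC and after paralog group 8 in HoxD, and lumbar signal continues through paralog group 11.

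Grouped by cluster, the posterior limit of brachial expression differed. HoxA, HoxB and HoxC members reached paralog group 9, whereas the 3 HoxD members together had a mean of 0.133 over the 6 brachial libraries against 216.5 over the 6 lumbar ones. *Hoxd8*, the anterior neighbour of *Hoxd9*, was at 47.6 ± 5.6 brachial and 74.3 ± 4.92 lumbar (SD, n = 6 each) and was called higher at the lumbar level, with a log2 difference of 0.65 (limma adjusted p = 0.000224). *Hoxc8*, the anterior neighbour of *Hoxc9* and a brachial identity gene, fell in the other direction, from 157 ± 17.1 brachial to 15.6 ± 1.9 lumbar (log2 difference -3.32, limma adjusted p = 1.57e-11). *Hoxa7*, the anterior neighbour of *Hoxa9*, was also lower at the lumbar level (log2 difference -0.95, limma adjusted p = 2.4e-06).

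The other paralog groups did not share the members' pattern of calls. Of 8 genes in groups 6 to 8, 1 was called higher at the lumbar level, 4 lower (with *Hoxc6* at -1.93 and *Hoxa6* at -0.68 beside *Hoxc8* and *Hoxa7*) and 3 neither, with a median difference of -0.54. Of 7 in groups 4 and 5, *Hoxd4* was called higher (0.70), 4 lower (among them *Hoxc5*, *Hoxc4* and *Hoxa5* at -1.65 to -1.06) and 2 neither, with a median of -0.41. In groups 1 to 3, *Hoxd1* (0.71) and *Hoxd3* (0.51) were called higher. None of the 6 genes of groups 12 and 13 passed the filter on low values, and *Hoxd12*, next to *Hoxd11*, reached at most 1.25 in a lumbar library and was listed at 0 in every brachial one.

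Summed over genes, paralog group 9 amounted to 150.3 ± 33.6 in brachial Het, 179 ± 64.5 in brachial KO, 273 ± 22 in lumbar Het and 291 ± 17.5 in lumbar KO (rescaled TPM, SD, n = 3 each). Paralog group 10 amounted to 326 ± 31.2 in lumbar Het and 300.3 ± 60.1 in lumbar KO and to less than 1 in the mean of either brachial group. Paralog group 11 amounted to 38.2 ± 2.96 in lumbar Het and 28.4 ± 4.48 in lumbar KO. Of the members' total, paralog group 9 made 99.8% ± 0.201 over the brachial libraries and 45% ± 3.94 over the lumbar ones, and paralog group 11 made 5.32% ± 1.05 over the lumbar ones (SD, n = 6 each).

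**Figure D3:**
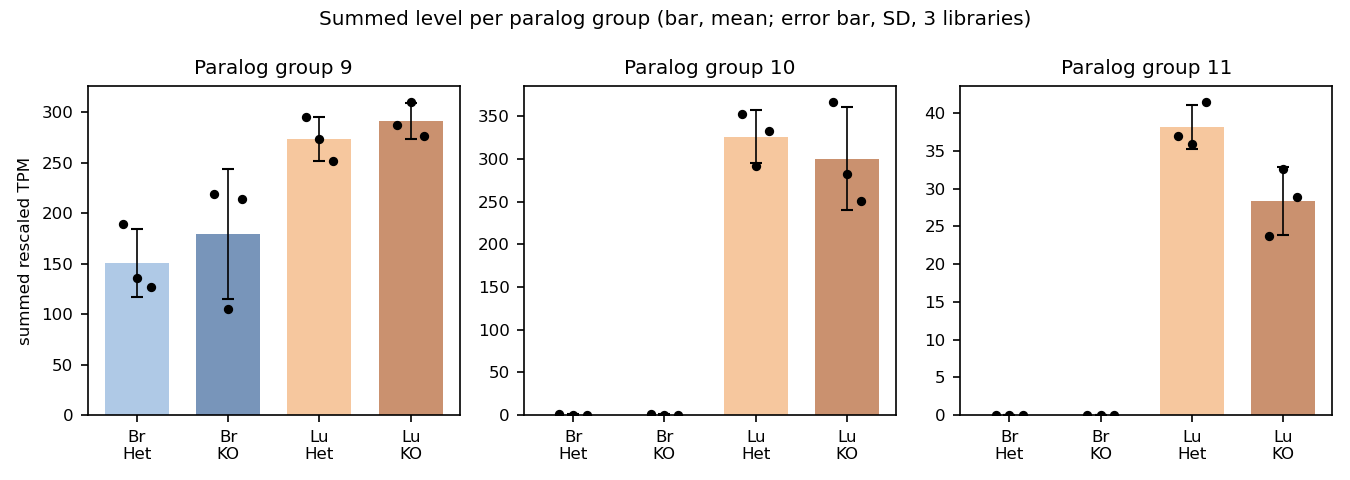
Summed rescaled TPM (linear y axis from 0) of the members of paralog groups 9, 10 and 11 in each group of 3 libraries, with bars for means, error bars for SD and points for libraries. Groups 10 and 11 are at or near 0 in brachial libraries, and the 3 lumbar KO libraries lie below the 3 lumbar Het libraries for group 11 alone.

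Noncoding genes between or beside the members had their own differences between levels. Of the *miR-196* genes, *Mir196b* (1031 bp from *Hoxa10*) and *Mir196a-2* (1451 bp from *Hoxc10*) lie between paralog groups 9 and 10. *Mir196a-1* lies 6064 bp from *Hoxb9* on its 5′ side, in a cluster without a paralog group 10 gene. The mature 5p products of the *miR-196* genes, which can repress *Hox* mRNAs, are shown because all of them share 1 seed (bases 2 to 8, in capitals).
miR-196a-5p: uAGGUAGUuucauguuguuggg
miR-196b-5p: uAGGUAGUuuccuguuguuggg

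Both sequences come from RefSeq, and over 22 bases they differ by A12C, with positions counted from the 5′ end and the miR-196a base given first. The libraries measure longer RNA over the locus, not the mature miRNA. *Mir196a-1* was listed at 0 in 5 brachial libraries and at 0.0218 in the other one, and was at 6.89, 5.37 and 4.97 in lumbar Het and 5.03, 2.7 and 5.54 in lumbar KO (limma adjusted p = 2.9e-09). *Mir196a-2* was at 0.0792 or listed at 0 in brachial libraries and was at 7.26, 5.68 and 4.69 in lumbar Het and 9.11, 6.55 and 5.04 in lumbar KO (limma adjusted p = 2.38e-09). *Mir196b* was low throughout, at no more than 1.2 in any library, and did not pass the filter for the comparison of levels.

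The HoxB region held a member expressed at both levels beside lumbar genes. *Gm53*, a long noncoding RNA gene on the 5′ side of *Mir196a-1* (chr11:96251660-96264484, plus strand), was at no more than 0.327 in brachial libraries. Lumbar libraries had 56.5, 61.3 and 66.5 in Het and 55.7, 22.6 and 20.3 in KO (limma adjusted p = 1.27e-07 between levels). *Gm53* also passed the threshold used for genotypes, a log2 difference beyond 0.5 with an unadjusted p under 0.05, as lower in lumbar KO (-1.05, SE 0.336, unadjusted p = 0.0139 and adjusted p = 0.999 by limma), with KO replicate 1 just below the Het range and the other 2 KO libraries far below it. *Gm51876*, on the opposite strand between *Gm53* and *Hoxb9*, showed the reverse order, with 1.65 to 4.15 in brachial and 0 to 1.08 in lumbar libraries (log2 difference -3.14, limma adjusted p = 0.00599). All 102 bp of *Mir196a-1* lie within *Gm51876* on the other strand, so with the strand setting not given, reads there could be assigned to either gene. *Hoxb8*, the anterior neighbour of *Hoxb9*, had a log2 difference of -0.40 that did not pass the test (limma adjusted p = 0.125).

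**Figure D4:**
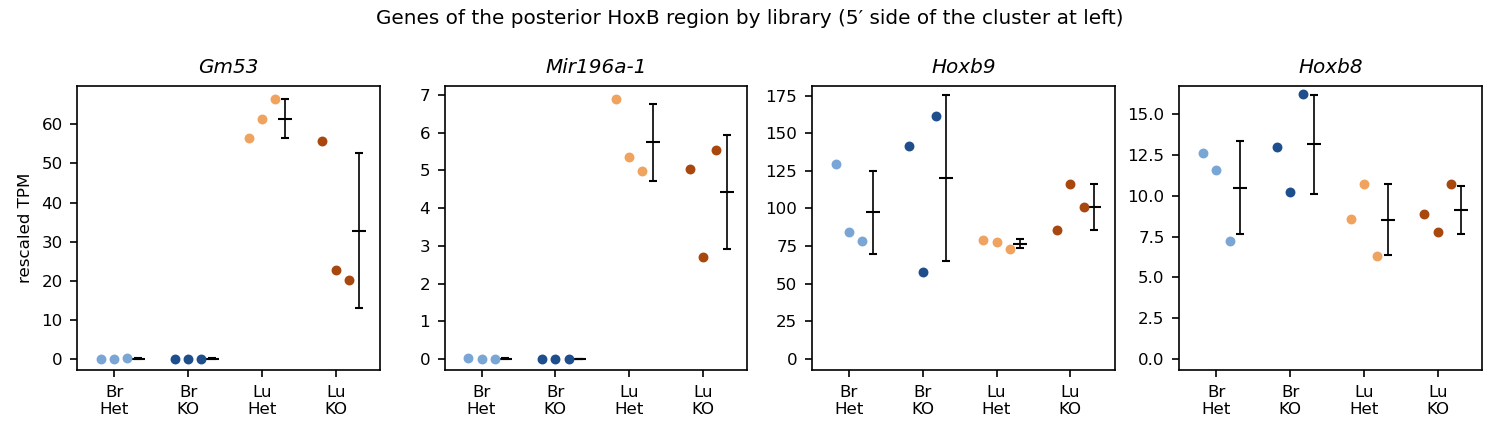
Rescaled TPM (linear y axis, one scale per panel) of *Gm53*, *Mir196a-1*, *Hoxb9* and *Hoxb8* in the 12 libraries, with mean and SD per group, in their order from the 5′ side of the cluster. *Gm53* and *Mir196a-1* are near 0 in brachial libraries, while *Hoxb9* and *Hoxb8* are present at both levels.

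*Hoxa11os*, the antisense partner of *Hoxa11*, was listed at 0 in all brachial libraries and was at 16.4, 15.8 and 19.4 in lumbar Het and 13, 18.2 and 13.2 in lumbar KO (limma adjusted p = 1.21e-12). In lumbar KO, replicate 2 was the highest for both *Hoxa11os* and *Hoxa11*. *Hotair*, a noncoding RNA transcribed beside *Hoxc11*, was listed at 0 in brachial libraries and was at 0.476, 0.955 and 1.39 in lumbar Het and 0.17, 0.5 and 0.777 in lumbar KO. *Hottip*, at the 5′ end of HoxA, was listed at 0 in 11 libraries. Of the 11 noncoding genes listed for the posterior clusters, 7 were tested between levels. At the lumbar level 3 were called higher, *Hotairm1* (-0.71) and *Halr1* (-1.19) lower, and 2 neither. Of all tested genes 8.91% were called higher and 9.62% lower. The 3 higher ones, *Hoxa11os*, *Mir196a-1* and *Mir196a-2*, lay at or near 0 in brachial libraries, so only a higher call was possible. Their count and p-values are a description, as is the p-value of *Gm53* between levels.

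Between genotypes at the lumbar level, *Hoxc11* fell in KO and no other member passed the threshold. The threshold was a log2 difference beyond 0.5 with an unadjusted p under 0.05 by limma, and 0.794% of 16629 tested genes passed it in the lower direction. Mean *Hoxc11* was 10.7 ± 2.47 in Het and 6.19 ± 1.61 in KO (SD, n = 3 each), which is 57.8% of the Het mean. All 3 KO libraries were below all 3 Het libraries, as they were for 5.52% of tested genes. The log2 difference was -0.79 (SE 0.222, 95% interval -1.30 to -0.28, unadjusted p = 0.00739 and adjusted p = 0.999 by limma), so it did not survive adjustment over all genes, and no gene did. Lumbar *Isl2* itself, at -0.35, did not reach the size threshold. Of the *Hox* genes outside the members, *Hoxa3* passed the threshold as higher in lumbar KO (0.59, unadjusted p = 0.00559 and adjusted p = 0.999 by limma). The mean coverage of *Hoxc11* was 12.3 to 40.5 reads per base over the lumbar libraries.

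*Hoxd11* was the only other member whose 3 KO libraries all lay below the 3 Het libraries. Its mean was 7.15 ± 0.143 in lumbar Het and 5.11 ± 0.91 in lumbar KO (SD, n = 3 each). The log2 difference was -0.49 (95% interval -0.83 to -0.15, unadjusted p = 0.0106 and adjusted p = 0.999 by limma), just short of the size threshold. It passed that threshold without lumbar Het replicate 2, at -0.51, without lumbar KO replicate 3, at -0.62, and with 0.001 in place of 0.1 added before logs, at -0.50. *Hoxa11* had 2 KO libraries below the Het range and 1 above it, and its log2 difference was -0.27 (95% interval -0.61 to 0.07, unadjusted p = 0.104 by limma).

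*Hoxb9* was the only member with all 3 lumbar KO libraries above the 3 Het libraries, as were 4.42% of tested genes. Its mean was 76.5 ± 2.97 in Het and 101 ± 15.3 in KO (SD, n = 3 each). The log2 difference was 0.39 (95% interval 0.14 to 0.64, unadjusted p = 0.00746 and adjusted p = 0.999 by limma), under the size threshold. Without lumbar KO replicate 1 it was 0.50 and passed the threshold.

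The other 6 members had lumbar groups that overlapped. Their log2 differences between KO and Het were -0.04 for *Hoxa9*, -0.06 for *Hoxc9*, -0.07 for *Hoxd9*, -0.11 for *Hoxa10*, -0.14 for *Hoxd10* and -0.22 for *Hoxc10*. The intervals of *Hoxa9* (-0.19 to 0.11) and *Hoxa10* (-0.32 to 0.11) were the narrowest, and that of *Hoxc10* (-0.73 to 0.29) the widest of these 6. In all, 3 of 10 members had an unadjusted p under 0.05, beside 4.86% of tested genes, and 9 of 10 had a difference below 0, as did 52.6% of tested genes. The median over the members was -0.12 and over all tested genes -0.01. The members were measured in the same libraries, so they are not independent observations.

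**Figure D5:**
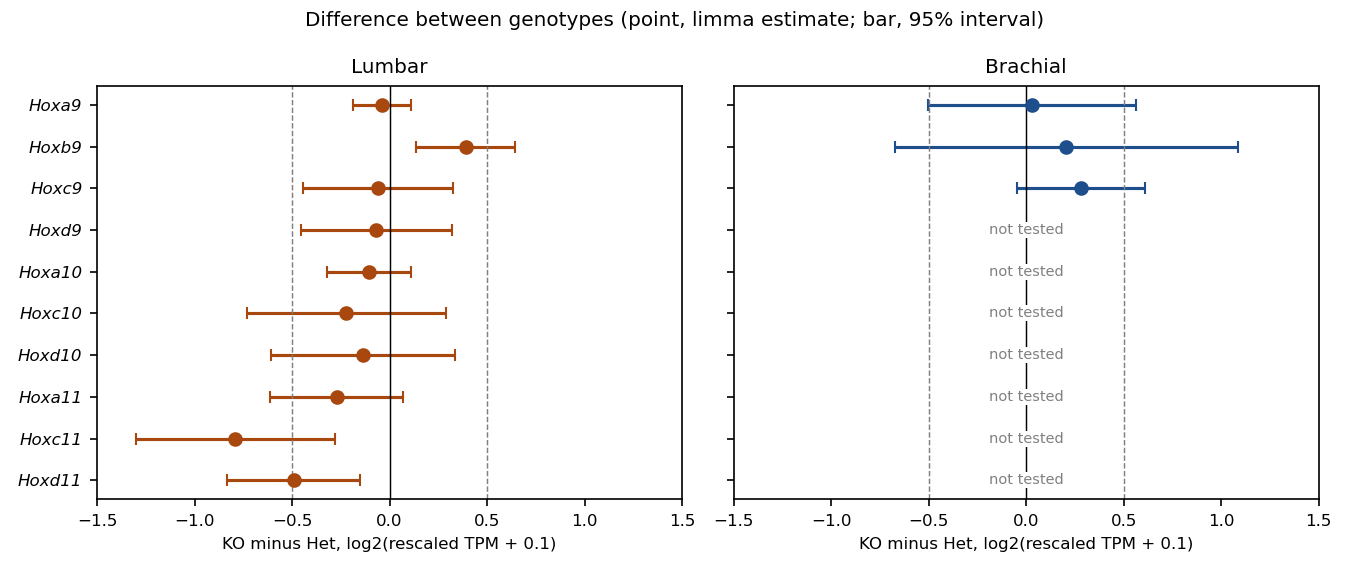
Difference between KO and Het in log2(rescaled TPM + 0.1), with 95% intervals, for each member at the lumbar (left) and brachial (right) level, with dashed lines at -0.5 and 0.5. At the lumbar level the interval excludes 0 for *Hoxc11*, *Hoxd11* and *Hoxb9*, and at the brachial level the 3 tested members have intervals that include 0.

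At the brachial level only *Hoxa9*, *Hoxb9* and *Hoxc9* passed the filter on low values, and none was called by genotype, beside 3.08% of 16775 tested genes called in either direction. Their log2 differences between KO and Het were 0.03 for *Hoxa9* (95% interval -0.50 to 0.56), 0.21 for *Hoxb9* (-0.67 to 1.09) and 0.28 for *Hoxc9* (-0.05 to 0.61), with unadjusted p-values of 0.896, 0.602 and 0.085 by limma. Without brachial KO replicate 2, *Hoxb9* reached 0.67 (unadjusted p = 0.0155 by limma) and passed the threshold. Of the other 7 members, none exceeded 1.09 in any brachial library, KO included. From the other lists, *Nkx6-1* (0.64), the activin receptor gene *Acvr2b* (0.60) and the sensory gene *Prdm12* (0.97) passed the threshold as higher in brachial KO (unadjusted p = 0.0212, 0.0338 and 0.0468, each with adjusted p = 0.357 by limma). *Gm36878*, which overlaps *Hoxc9* on the opposite strand, also passed it as higher (0.78, unadjusted p = 0.0139 and adjusted p = 0.357 by limma).

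Whether the effect of genotype differed between levels was tested as an interaction in limma over all 12 libraries. For the 7 members at or near 0 in brachial libraries there is no brachial genotype difference to set against the lumbar one, so the interaction bears only on *Hoxa9*, *Hoxb9* and *Hoxc9*. None of these 3 was called, and 0% of the 16706 tested genes were, while at an unadjusted p under 0.05 it was 4.42% of genes and none of the 3. The lumbar minus brachial estimates were -0.07 for *Hoxa9* (95% interval -0.65 to 0.51), 0.18 for *Hoxb9* (-0.79 to 1.16) and -0.34 for *Hoxc9* (-0.86 to 0.18).

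Other lumbar motor neuron genes are given beside the fall of *Hoxc11*. In a list of 22 genes of hindlimb lateral motor column and motor pools, 2 passed the same threshold as lower in lumbar KO, beside 0.794% of tested genes, and none as higher. These were *Etv4*, a pool transcription factor, with a log2 difference of -1.005 (unadjusted p = 0.00156 by limma), and *Sema3e*, a guidance ligand, with -0.80 (unadjusted p = 0.00502 by limma). *Prph* was also lower (-0.78, unadjusted p = 0.00399 by limma). Of the markers of other cells, *Ptf1a*, a dorsal interneuron factor, was higher (0.81, unadjusted p = 0.00852 by limma), as was the embryonic globin gene *Hba-x* (0.69, unadjusted p = 0.0395 by limma). The summed motor neuron markers were 431, 333 and 365 in lumbar Het and 338, 370 and 275 in lumbar KO, and the part of these cell types in the *Hoxc11* difference was not tested.

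Cofactors and known upstream genes were also compared between levels, beside 8.91% of all tested genes called higher and 9.62% called lower at the lumbar level. Of 9 TALE homeodomain genes, whose proteins bind DNA together with Hox proteins, 2 were called higher at the lumbar level, *Meis3* (log2 difference 0.38, limma adjusted p = 0.0113) and *Pbx2* (0.31, limma adjusted p = 0.0179), and 7 were not called. Of 21 genes of the signals that set posterior *Hox* expression, 14 passed the filter, 4 were called higher and 1 lower. The retinoic acid receptor *Rarb* rose by 0.52 on the log2 scale (limma adjusted p = 0.00267), the posteriorizing ligand *Gdf11* by 0.38 (limma adjusted p = 0.00685) and its receptor *Tgfbr1* by 0.29 (limma adjusted p = 0.019), and the retinoic acid synthesizing enzyme gene *Aldh1a2* was lower by -0.49 (limma adjusted p = 0.00809). In the list of 22 hindlimb motor column and pool genes, 2 were called higher at the lumbar level, a share near that of all genes, and 6 lower, with the guidance receptor gene *Epha3* and the transcription factor gene *Nkx6-1* as the higher ones at 0.98 and 0.90 and *Etv4* among the lower ones at -1.60 on the log2 scale.

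Outside the *Hox* clusters, the genes whose log2 level was most like the mean of the 10 members over the 12 libraries were *Magi3* (Pearson r = 0.978), *Pde3b* (0.969), *Hmcn1* (0.967), *Cabp7* (0.966) and *Npr3* (0.961). The libraries fall into 2 clusters, one for each level, so these values mostly describe the step between levels. *Cabp7* went from a mean of 7.69 brachial to 22.5 lumbar and *Magi3* from 24.6 to 33.5 rescaled TPM. Over the 6 lumbar libraries alone, the genes most like *Hoxc11* were *Pigp* (r = 0.99), *Retreg1* (0.989), *Ap1ar* (0.988), *Rhot1* (0.988) and *4930429B21Rik* (0.987), chosen from all tested genes.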

How the data were processed

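The study trimmed around *Hb9*::GFP, prepared ribosomal-RNA-depleted stranded libraries and, per the labels, used Trimmomatic 0.38, HISAT2 2.1.0, Bowtie2 2.3.4.1, mm10 and StringTie 2.1.3b. StringTie, as run by the authors, gave the deposited TPM, which sums to one fixed total in each library. The deposited FPKM and the deposited per-base coverage come from the same runs. Symbols and coordinates came from RefSeq GRCm38.p6, which named 45679 of the 45777 identifiers.

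Size factors by median of ratios (0.893 to 1.25) put TPM on a common scale. After adding 0.1, log2 values were modelled in limma 3.58.1 (R 4.3.3, eBayes with a trend) where mean TPM reached 0.5. Levels were compared in 12 libraries and within each genotype, and genotypes within each level in 6. The tables hold no counts, so no count model was run. Sums per paralog group and cluster carry no test. Tables and plots were made with Python 3.11.15, pandas 2.3.3 and matplotlib 3.10.9.

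The members, gene lists and tests were chosen with earlier results of these data known. All members are named. Other genes are named when called and among the 4 of their list with the largest difference, when next to a member, when they check a label, or when among the 5 most alike in pattern. *Hoxd12*, *Gm53*, *Gm51876*, *LOC115490410*, *Gm36878*, *Hotair*, *Hottip* and *Mir196b* are named as neighbours. Alternatives were other pseudocounts, filters, units and normalizations, no trend, protein-coding genes only, a replicate block and leaving out each library. A result on 1 further gene of the lists is not reported here.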

Additional observations from a re-analysis of the deposited data

How the results depend on the processing

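The count of members called between levels was 8 of 10 under every alternative that kept all libraries, and 8 to 9 when a library was left out. Within Het libraries it was 8 to 8 and within KO libraries 7 to 8, where *Hoxa9* was the member lost. The lumbar genotype count of 1 (*Hoxc11*) became 2 with a pseudocount of 0.001, 0 with an adjusted p under 0.05, and 1 to 2 when a library was left out. *Hoxc11* passed under all 18 alternative fits, at -0.98 to -0.60 on the log2 scale. The brachial genotype count was 0 to 1 when a library was left out, and the interaction count 0 to 0.

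Members with small differences changed sign when a library was left out. Lumbar genotype differences ran from -0.227 to 0.0744 for *Hoxc9*, -0.201 to 0.0757 for *Hoxd9* and -0.38 to 0.016 for *Hoxd10*. Brachial ones ran from -0.22 to 0.20 for *Hoxa9* and -0.0737 to 0.67 for *Hoxb9*. Level differences within KO ran over -0.59 to 0.15 for *Hoxb9* and -0.0698 to 0.20 for *Hoxc9*, and *Hoxc9* was at -0.17 with values as deposited. With TPM as deposited, 2 of 31 sums moved by more than 1 SD, HoxA to 247.9 and HoxB to 72.8 in lumbar Het. The cause was not tested.

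Replicate numbers could not be used to pair libraries. Of 6 same-numbered pairs of levels, 3 differed in *Ddx3y*, and whether the 3 matching pairs share an embryo is unknown. Deviations of same-numbered libraries correlated at 0.02 to 0.22 between brachial genotypes, -0.20 to 0.13 between lumbar genotypes and -0.21 to 0.34 between levels. In the matching pairs of levels they correlated at 0.20 and 0.34 for Het replicates 2 and 3 and 0.03 for KO replicate 1. With a replicate block, the counts were 8 between levels, 8 within Het, 8 within KO, 1 by lumbar genotype, 0 by brachial genotype and 0 in the interaction. With 3 libraries a group and no counts, a small difference in low members such as *Hoxd11* could be missed.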
